A study of Aspergillus niger with 6 samples.

Results

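The comparison described here set mycelium that had received glucose for 5 h after 24 h on willow wood against mycelium grown on glucose for 48 h. Its members were chosen by the culture condition in the labels, which gave 4 of the 6 libraries of the series, 2 per group, and 15431 gene rows. In all libraries the fungus was Aspergillus niger strain N402, a laboratory strain of a mould that industry grows for enzymes and citric acid. The glucose-added cultures had been grown on glucose for 48 h, filtered, washed, moved to fresh medium with 1% ball-milled willow as the carbon source for 24 h, and then given glucose for 5 h, in an amount the labels do not state. In contrast, the glucose 48 h cultures grew from spores in medium with 1% glucose, with no transfer. The groups therefore differed in time on willow, in washing and transfer, in culture age and in the time since glucose was supplied, and these cannot be told apart. The libraries of a group came from duplicate flasks, A and B, whose values are given in that order. In bulk mycelium, fewer hyphae of a type and less RNA per hypha cannot be told apart either.

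When glucose is at hand, filamentous fungi take it up and break it down by glycolysis to pyruvate, which enters the citrate cycle and respiration or is turned into ethanol and organic acids. Glucose also represses genes for the use of other carbon sources, through the repressor CreA, and this repression covers most enzymes that degrade cellulose, xylan and pectin, which are switched on during growth on plant cell walls by activators such as XlnR. Ageing and carbon-starved hyphae are known to recycle their own cell contents with proteases and chitinases and to form spores.

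Reads counted to genes numbered 775667 and 437314 in the glucose-added libraries, against 635522 and 758523 in the glucose 48 h libraries. They were 3.15% (95% Wilson interval 3.14% to 3.15%) and 1.59% (1.58% to 1.59%) of all reads in the glucose-added libraries, and 2.97% (2.97% to 2.98%) and 2.99% (2.99% to 3.0%) in the glucose 48 h libraries. Multiply aligned reads made up 58.8% and 74.8% of reads with glucose added and 58.4% and 68.3% on glucose 48 h. Library B of the glucose-added group had the fewest gene reads of the 4, though the most reads in all (27564938). Levels are given as CPM, gene counts scaled to a common library size with TMM factors. A sum of 3 counts in the 2 libraries equalled 2.42 CPM with glucose added and 1.93 CPM on glucose 48 h. Of the gene rows, 7684 had a count in all 4 libraries and 4138 had none in any of them.

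The transcriptomes of the glucose-added and glucose 48 h cultures differed at 1167 of the 6181 genes that passed the count filter, which is 18.9% of those tested (edgeR's quasi-likelihood test, adjusted p under 0.05), and 30.4% had an unadjusted p under 0.05. Transcripts of 619 genes (10.0%) were higher with added glucose and those of 548 (8.87%) were lower. The difference was at least 2-fold for 1147 of the called genes. Among the largest differences, at least 32-fold, 44 genes were higher and 49 were lower with added glucose. The median log2 fold change over all tested genes was 0.00. It was -0.13 when libraries were scaled by total gene counts and -0.19 in the deposited RPKM values (reads per length and library size), and with those scalings 43.2% and 24.1% of calls were higher instead of 53.0%. A limma test on log2(RPKM + 1) called 758 genes, 183 higher and 575 lower. RPKM values divide by all reads of a library. Genes held 1.59% of these in glucose-added library B, against 3.15% in library A and 2.97% and 2.99% on glucose 48 h. The divisor thus sets RPKM values of glucose-added library B lower against the other libraries than its CPM values are. Without library A of the glucose-added group 631 genes were called, and without library B of the glucose 48 h group 722.

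In a principal component analysis of all 6 libraries, the second component carried 23.9% of the variance and held the glucose-added libraries at -48.8 and -48.1, against 37.7 and 46.7 for glucose 48 h. On the first component, with 62.7%, the glucose-added libraries lay at -35.9 and -31.1 and the glucose 48 h libraries at -53.4 and -49.4, while the willow libraries lay at 86.5 and 83.2. The 10 genes with the most reads took 19.4% and 21.8% of gene reads with glucose added, against 14.3% and 15.6% on glucose 48 h.

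**Figure D1:**
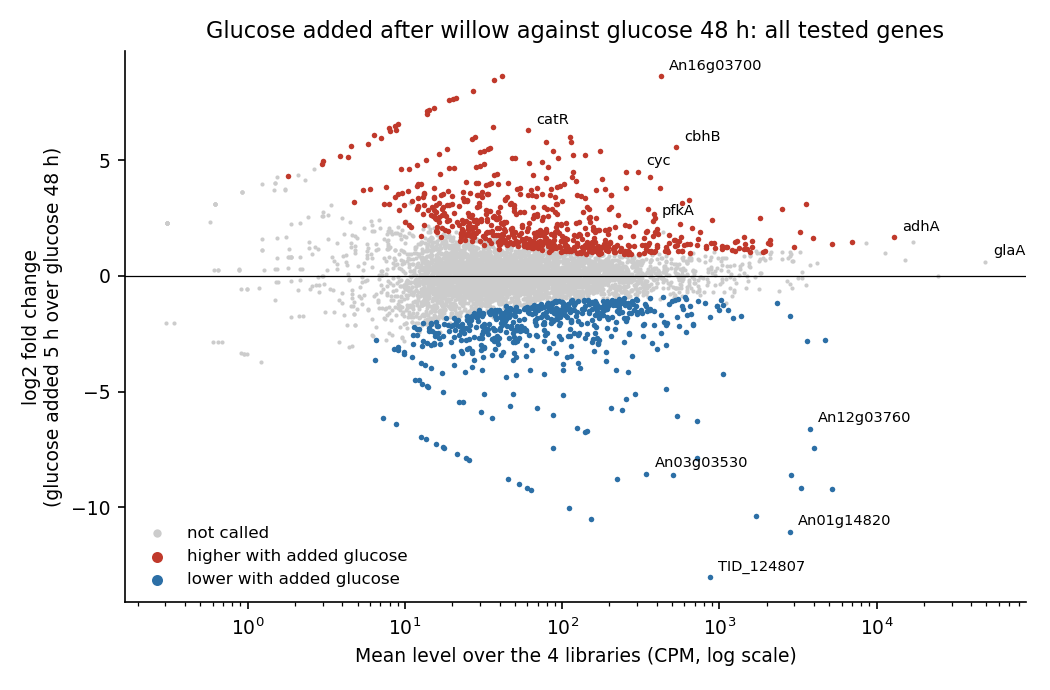
Each point is 1 of 6181 tested genes, with its mean level over the 4 libraries (CPM, log scale) on the horizontal axis and its log2 fold change, glucose added 5 h over glucose 48 h, on the vertical axis. Red points are the 619 genes called higher with added glucose, blue points the 548 called lower and grey points those not called. The lowest point is TID_124807, and called genes lie on both sides of 0.

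Of the 10 tested genes of glycolysis, pfkA was several-fold higher with added glucose and the other 9 did not pass the test. The gene pfkA encodes phosphofructokinase, which commits sugar to glycolysis. It had 671 and 599 CPM in the glucose-added cultures, against 79.5 and 163 CPM in the glucose 48 h cultures, and rose by 2.38 ± 0.36 log2 units (± SE, adjusted p = 4.1e-05, edgeR). The levels did not overlap, and without glucose 48 h library B the log2 fold change was 2.99. The median log2 fold change of the list was 0.26, and -0.25 with RPKM values. The 1 call of 10 compares with 18.9% of all tested genes called in either direction. The gene for hexokinase (hxk) stood at 87.7 and 74.0 CPM with glucose added and 60.3 and 105 CPM on glucose 48 h. For glucokinase (GlkA) the values were 188 and 249.7 CPM with glucose added and 118 and 119.7 CPM on glucose 48 h, with an adjusted p of 0.079 in edgeR's test. The gene gpdA, for the glyceraldehyde phosphate dehydrogenase of glycolysis, had 877 and 1140.0 CPM with glucose added, against 591 and 1145 CPM on glucose 48 h. For pkiA, which encodes the pyruvate kinase that ends the pathway, the values were 634 and 587 CPM with glucose added and 444 and 404 CPM on glucose 48 h. Levels of pkiA and of tpiA (triose phosphate isomerase, 463 and 391 CPM with glucose added and 292 and 221 CPM on glucose 48 h) did not overlap, yet neither difference passed the test. Under the replicate block GlkA was called higher (0.0481).

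Genes around pyruvate moved in both directions. Of 5 tested genes on the list for the fermentation and pyruvate branch, 2 rose (adhA and An02g06820), 2 fell (aldA and gsdA) and pyc did not pass. Over all tested genes, 10.0% were called higher and 8.87% lower. The list also holds gsdA, though its product belongs to the pentose phosphate pathway, so aldA alone fell among the genes around pyruvate. The alcohol dehydrogenase gene adhA, whose product interconverts acetaldehyde and ethanol, held many reads in both groups. It had 19626 and 19516 CPM with glucose added, against 6022 and 6250.0 CPM on glucose 48 h, and rose by 1.67 ± 0.43 log2 units (adjusted p = 0.00767, edgeR). Both glucose-added libraries lay about equally far above both glucose 48 h libraries in CPM. In the limma test on RPKM values, whose divisor lowers glucose-added library B, the adjusted p of adhA was 0.322. An02g06820, on the list by identifier alone, had 7647 and 7395 CPM with glucose added and 1799 and 3972 CPM on glucose 48 h and rose by 1.38 ± 0.42 log2 units (adjusted p = 0.0215, edgeR). That call was lost without glucose-added library A (0.0735), without glucose-added library B (0.058), without glucose 48 h library A (0.168) and with RPKM values (0.372), and without glucose 48 h library B the log2 fold change was 2.06. The gene pyc, for the pyruvate carboxylase that refills the citrate cycle, stood at 1274 and 1371 CPM with glucose added and 750.2 and 779 CPM on glucose 48 h, without overlap but with an adjusted p of 0.119 in edgeR's test.

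The aldehyde dehydrogenase gene aldA, whose product acts on acetaldehyde in the use of ethanol, went the other way from adhA. It had 91.4 and 76.3 CPM with glucose added, against 195 and 255 CPM on glucose 48 h, and fell by 1.41 ± 0.38 on the log2 scale (adjusted p = 0.0105, edgeR). On willow it had 1422 and 708 CPM, so that the lowest values of the series were those after glucose addition. The call was lost without glucose-added library A (0.0656), without library B (0.102) and with RPKM values (0.0581). The gene gsdA, for glucose 6-phosphate dehydrogenase at the entry of the pentose phosphate pathway, had 553 and 391 CPM with glucose added and 1144 and 837 CPM on glucose 48 h. It fell by 1.06 ± 0.35 on the log2 scale (adjusted p = 0.0327, edgeR). That call was lost without glucose-added library A (0.0771) or B (0.273) and without glucose 48 h library A (0.158).

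Of 7 tested genes of citrate and respiration, 3 rose and none fell, and all 3 belong to the respiratory chain. Over all tested genes, 10.0% were called higher and 8.87% lower. The largest difference was at cyc, the gene for cytochrome c, which carries electrons to the terminal oxidase. It had 443 and 728 CPM with glucose added, against 17.8 and 32.6 CPM on glucose 48 h, a log2 fold change of 4.51 ± 0.46 (adjusted p = 1.57e-07, edgeR). On willow it had 23.9 and 77.5 CPM, so both glucose-added cultures stood above the other 4 libraries. The gene cox5, for a subunit of cytochrome c oxidase, had 243 and 236 CPM with glucose added and 98.7 and 115 CPM on glucose 48 h and rose by 1.16 ± 0.33 log2 units (adjusted p = 0.0134, edgeR). The gene nuo51, for a subunit of respiratory complex I, had 25.9 and 39.3 CPM with glucose added and 8.23 and 6.04 CPM on glucose 48 h and rose by 2.14 ± 0.67 log2 units (adjusted p = 0.0274, edgeR). Calls for cox5 and nuo51 were each lost without any single one of the 4 libraries. For cox5 the adjusted p was then 0.0855 and 0.0595 without glucose-added library A or B and 0.0912 and 0.0518 without glucose 48 h library A or B. For nuo51 it was 0.0701 and 0.184 without glucose-added library A or B, 0.0649 and 0.176 without glucose 48 h library A or B, and 0.0758 by DESeq2. With RPKM values the adjusted p was 0.498 for cox5 and 0.169 for nuo51.

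The alternative oxidase gene aox1, whose product passes electrons to oxygen without cytochrome c, had 2264 and 2333 CPM with glucose added, against 754 and 1445 CPM on glucose 48 h, and missed the threshold (adjusted p = 0.0674, edgeR). It was called higher without glucose 48 h library B (0.00814, at a log2 fold change of 1.60), without willow library A (0.0318) or B (0.0304), with no count filter (0.0400), with the 4 libraries alone (0.0427) and under the replicate block (0.0135). Genes of the citrate cycle itself did not pass the test. The citrate synthase gene citA had 506 and 331 CPM with glucose added and 421 and 688 CPM on glucose 48 h, and icdA, for isocitrate dehydrogenase, had 379 and 342 CPM with glucose added and 433 and 462 CPM on glucose 48 h. The catalase gene catR, whose product breaks down hydrogen peroxide, had almost no reads on glucose 48 h. It had 76.6 and 164 CPM with glucose added, against 0 and 2.42 CPM on glucose 48 h, which is 133 against 2 counts and a ratio of 83.3 with a 95% exact counting interval of 22.6 to 695 (adjusted p = 1.77e-06, edgeR). The ratio rests on very few glucose 48 h counts, and the fitted log2 fold change of 6.32 was 9.06 without glucose 48 h library B and 5.49 without library A. The glucose oxidase gene goxC, whose product forms hydrogen peroxide, had 1.23 and 2.31 CPM with glucose added and 2.74 and 4.84 CPM on glucose 48 h, too few counts to be tested. The gene rpl15, for a protein of the large ribosomal subunit, had 1971 and 1848 CPM with glucose added, against 782 and 550.1 CPM on glucose 48 h, and rose by 1.52 ± 0.35 log2 units (adjusted p = 0.00281, edgeR; 0.349 by limma on RPKM).

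**Figure D2:**
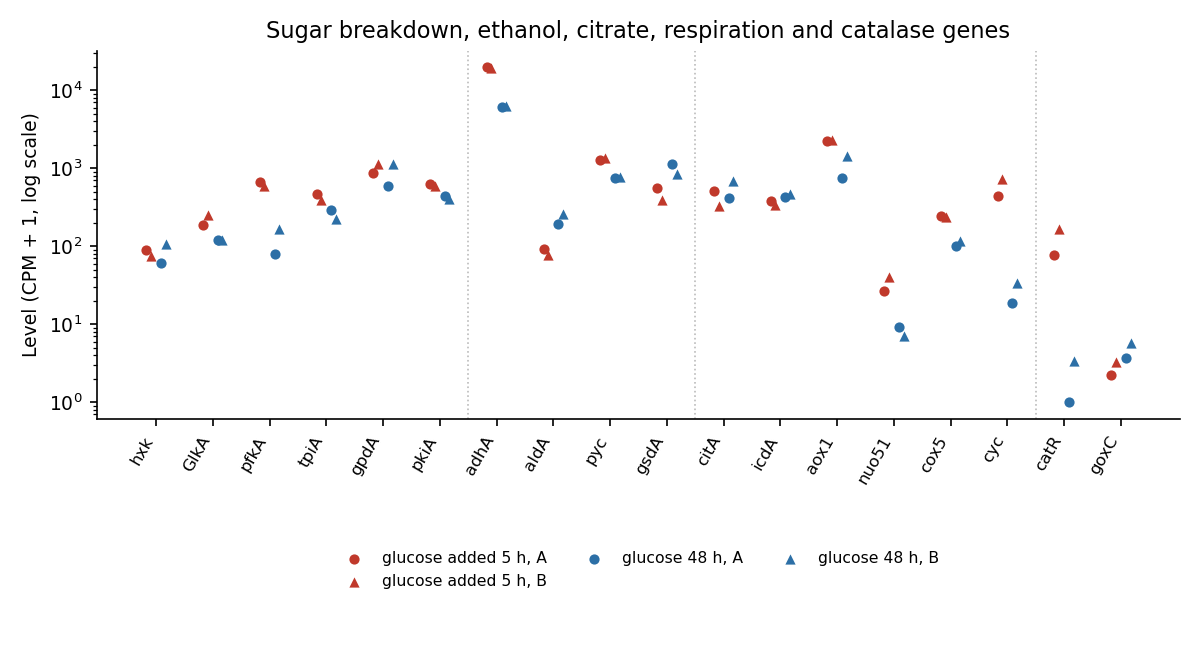
Levels (CPM + 1, log scale) of genes for sugar breakdown, the pyruvate branch, citrate and respiration, and hydrogen peroxide, in each glucose-added library (red) and glucose 48 h library (blue), with circles for library A and triangles for library B. The groups are far apart at pfkA, adhA, cyc and catR, while hxk, gpdA, citA and goxC overlap or nearly meet.

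Some genes for cellulose degradation stood above the glucose 48 h level 5 h after glucose was added, while others that were also high on willow gave no call. Of 11 tested genes on the list, 4 were higher with added glucose and none lower, against 10.0% of all tested genes called higher and 8.87% lower. With the 4 libraries alone, 10 members passed the count filter, with 3 called higher and 1 lower. The list's median log2 fold change was 1.32, or 0.22 with RPKM values, against 0.00 over all tested genes (-0.19 with RPKM values). The cellobiohydrolase gene cbhB, whose product cuts cellobiose from cellulose chains, had 1323 and 749 CPM with glucose added, against 28.8 and 14.5 CPM on glucose 48 h. It rose by 5.58 ± 0.60 log2 units (adjusted p = 2.83e-07, edgeR), and on willow it had 24489.7 and 11568 CPM. The second cellobiohydrolase gene, cbhA, had 44.5 and 224 CPM with glucose added, against 49.4 and 84.6 CPM on glucose 48 h, with 19162 and 26955 CPM on willow. For cbhA the groups overlapped, and the log2 fold change of 0.95 ± 0.58 did not pass the test (adjusted p = 0.291, edgeR). It was called higher without glucose-added library A (0.0450, at a log2 fold change of 1.74). Both genes were thus far higher on willow, while the glucose-added and glucose 48 h groups were separate at cbhB and overlapped at cbhA.

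Of the endoglucanase genes, whose products cut cellulose chains internally, eglA passed the test and eglB did not. The gene eglA had 59.3 and 71.7 CPM with glucose added, against 15.1 and 8.46 CPM on glucose 48 h, and rose by 2.46 ± 0.52 log2 units (adjusted p = 0.00126, edgeR). The gene eglB had 25.9 and 62.4 CPM with glucose added, against 23.3 and 13.3 CPM on glucose 48 h, and its difference of 1.21 ± 0.58 log2 units did not pass (adjusted p = 0.162, edgeR). The beta-glucosidase gene bgl1, whose product splits cellobiose into glucose, had 212 and 305 CPM with glucose added and 61.7 and 66.5 CPM on glucose 48 h and was 4.01-fold higher with added glucose (adjusted p = 0.00126, edgeR). All of them were far above these levels on willow, with 7387 and 8731 CPM for eglA, 18999 and 15841 CPM for eglB and 9307 and 8225 CPM for bgl1. Whether cbhB and cbhA, or eglA and eglB, differed in their change was not tested. The fourth call on the list, An08g01760, rose by 1.66 ± 0.59 log2 units (adjusted p = 0.0485, edgeR) and was lost under several alternatives, among them leaving out glucose-added library A (0.0794) or B (0.263) or glucose 48 h library B (0.319), upper quartile scaling (0.0509), scaling by total counts (0.0698) and a fit of the 4 libraries alone (0.0694). With RPKM values, which are under 1 for many of these transcripts, the adjusted p was 0.312 for eglA, 0.297 for bgl1 and 0.767 for An08g01760, and the call at cbhB stood. An08g05230 had 6.17 and 18.5 CPM with glucose added and 26.1 and 50.8 CPM on glucose 48 h (-1.77 ± 0.64 log2 units, adjusted p = 0.0558, edgeR), and was called lower under 9 of the 15 alternatives. Among these were leaving out glucose 48 h library A (adjusted p = 0.0249), glucose-added library B (0.0386) or willow library A (0.0161) or B (0.0197), and RPKM values (0.0282). The others were total gene counts (0.0354), no count filter (0.0307), the 4 libraries alone (0.0347) and the replicate block (0.0420). Further members were called higher without glucose 48 h library A, namely An12g02220 (0.0360) and An12g04610 (0.0311, and 0.0269 by DESeq2).

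Genes for xylan, the main hemicellulose of hardwoods, gave no call. None of 11 tested members passed edgeR's test, against 18.9% of all tested genes, with 3 at an unadjusted p under 0.05, against 30.4% of all tested genes, and neither DESeq2 nor limma on RPKM called any. Their median log2 fold change was 0.91, and over the alternatives it lay between 0.08 (RPKM values) and 1.35 (without glucose 48 h library B), with 0.36 without glucose-added library B and 0.35 without glucose 48 h library A. With the 4 libraries alone, 6 members passed the count filter and none was called. The endoxylanase gene xynB had 17.3 and 18.5 CPM with glucose added, against 4.11 and 21.8 CPM on glucose 48 h, and the groups overlapped. The beta-xylosidase gene xlnD, whose product releases xylose, had 24.7 and 20.8 CPM with glucose added and 4.11 and 12.1 CPM on glucose 48 h, without overlap but with an adjusted p of 0.0766 in edgeR's test. At these levels a library held few reads of a gene, which limits what could be detected. Leaving out glucose-added library A gave 2 calls on the list, both higher (abfB and faeA), and leaving out either glucose 48 h library or either willow library, or adding the replicate block, gave 1 (abfB or xlnD).

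Among genes for mannan, xyloglucan and galactose side chains, 3 of 8 tested members rose and none fell, against 10.0% of all tested genes called higher and 8.87% lower. The largest change was at An01g01870, on the list by identifier alone, with 755 and 615 CPM with glucose added, against 43.9 and 27.8 CPM on glucose 48 h and 6759.7 and 9271 CPM on willow. It rose by 4.26 ± 0.46 log2 units (adjusted p = 3.64e-07, edgeR). The beta-galactosidase gene lacA+ had 172 and 143 CPM with glucose added and 19.2 and 26.6 CPM on glucose 48 h, and rose by 2.77 ± 0.44 log2 units (adjusted p = 6.46e-05, edgeR; 0.221 by limma on RPKM). An09g00260, to which RefSeq gives the alpha-galactosidase symbol aglC, had 261 and 213 CPM with glucose added and 42.5 and 26.6 CPM on glucose 48 h, a log2 fold change of 2.78 ± 0.38 (adjusted p = 8.15e-06, edgeR). Its willow values of 63.1 and 74.7 CPM were lower than those with glucose added, unlike those of lacA+ (2939 and 4832 CPM). The alpha-galactosidase genes aglA and aglB did not pass, with 227 and 150.3 CPM for aglB with glucose added and 199 and 440.0 CPM on glucose 48 h. Without glucose 48 h library A, aglB was called lower (adjusted p = 0.0285, edgeR).

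Genes for pectin, the gel polysaccharide between plant cells, had few reads in either group. Of 16 listed, 9 passed the count filter, 6 of them only when the willow libraries, where they are higher, entered the filter. Of the 9, 3 were called higher, against 10.0% of all tested genes, and with the 4 libraries alone 1 of 3 was. No direction is given for the list, since its median log2 fold change of 2.27 was -1.45 over those 3 genes, 1.06 without glucose-added library A and 1.54 without glucose 48 h library B. It was 0.90 with pgaII at its bound and without 2 genes that had at most 3 counts in each group. The endo-arabinanase gene abnA had 14 counts with glucose added, against 1 on glucose 48 h, a ratio of 17.5 with a 95% exact counting interval of 2.67 to 742 (adjusted p = 0.00615, edgeR). The rhamnogalacturonan hydrolase gene rhgA had 17.3 and 34.7 CPM with glucose added and 8.23 and 0 CPM on glucose 48 h (adjusted p = 0.0179, edgeR). The polygalacturonase gene pgaII had 8 counts with glucose added and none on glucose 48 h, at least 3.12-fold higher against 3 counts over the group (adjusted p = 0.0398, edgeR). These 3 calls were fragile, and none was made by DESeq2 (adjusted p 0.0519 for abnA, 0.187 for rhgA and 0.05001 for pgaII) or by limma on RPKM (0.803 for abnA, 0.637 for rhgA and 0.506 for pgaII). The call was lost for abnA without glucose-added library A (0.173), and for rhgA without glucose-added library B (0.138) or glucose 48 h library B (0.175). For pgaII it was lost without glucose-added library A (0.207) or B (0.059), glucose 48 h library A (0.102) or B (0.156) and willow library A (0.0784). The fitted log2 fold change of 2.59 for rhgA was 6.85 without glucose 48 h library A and 1.54 without library B, and that of 3.73 for abnA was 3.06 without glucose-added library A, 2.99 without glucose 48 h library A and 5.66 without library B. In the other direction, pgaB and rhgB had log2 fold changes of -1.74 and -1.44, which did not pass. With RPKM values pgaB was called lower (0.0185), and rhgB was without willow library A (0.0379) or B (0.0416).

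**Figure D3:**
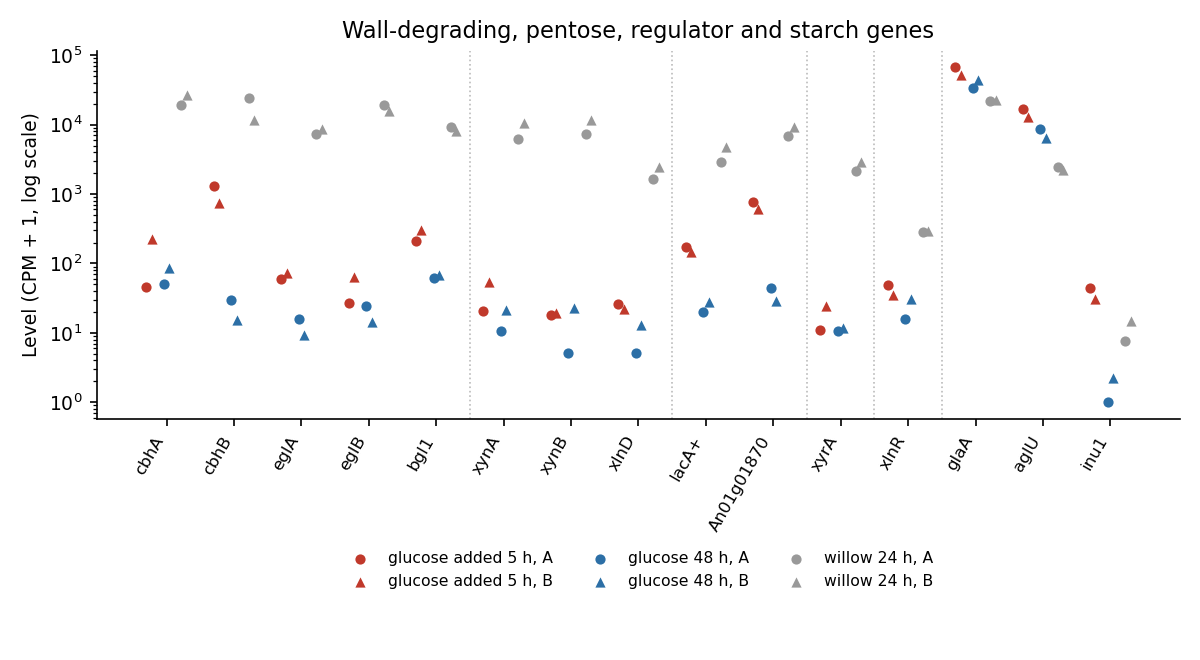
Levels (CPM + 1, log scale) of genes for cellulose, xylan, galactose side chains, pentose use, the activator XlnR and starch or inulin, in each glucose-added library (red), glucose 48 h library (blue) and willow library (grey), with circles for library A and triangles for library B. With glucose added, cbhB and An01g01870 lie between the willow and glucose 48 h levels, while the values of xynB and xyrA overlap those on glucose 48 h and glaA is high in both glucose-fed groups.

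Genes of pentose use and the listed regulators gave no call. None of 4 tested pentose genes passed edgeR's test, with none at an unadjusted p under 0.05 and none by DESeq2 or limma, where 18.9% of all tested genes were called and 30.4% had such an unadjusted p. With the 4 libraries alone, 2 of them passed the count filter. The xylose reductase gene xyrA had 9.88 and 23.1 CPM with glucose added and 9.60 and 10.9 CPM on glucose 48 h, against 2129 and 2939 CPM on willow. None of 8 tested regulators passed edgeR's test, none had an unadjusted p under 0.05, against the same 18.9% and 30.4%, and DESeq2 and limma called none. Without glucose 48 h library A, An04g08600, on the list by identifier alone, was called higher (adjusted p = 0.00820, edgeR; 0.172 with all libraries). The gene xlnR, for the activator of xylan and cellulose degradation, had 48.2 and 34.7 CPM with glucose added, against 15.1 and 30.2 CPM on glucose 48 h, with an adjusted p of 0.174 in edgeR's test. The repressor gene creA had 45.7 and 34.7 CPM with glucose added and 28.8 and 41.1 CPM on glucose 48 h, and the groups overlapped. The gene amyR, for the activator of starch degradation, had 97.6 and 25.4 CPM with glucose added, so that library A lay above and library B below both glucose 48 h libraries (89.1 and 68.9 CPM). These are transcript levels, and the activity of the encoded proteins was not measured.

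Among genes for starch, sucrose and inulin, glaA and aglU held many reads in both groups. Of 8 listed genes present in the data, 4 passed the count filter and 4 did not. The glucoamylase gene glaA had 66552 and 52219 CPM with glucose added, against 33695 and 43753 CPM on glucose 48 h, and its log2 fold change of 0.62 ± 0.51 did not pass (adjusted p = 0.462, edgeR). The alpha-glucosidase gene aglU had 16774 and 13016 CPM with glucose added and 8737 and 6402 CPM on glucose 48 h, without overlap and with an adjusted p of 0.12 in edgeR's test and 0.0190 by DESeq2. Of the 4 tested members 2 rose, against 10.0% of all tested genes, and the inulinase gene inu1 was one of them. It had 43.2 and 30.1 CPM with glucose added, against 0 and 1.21 CPM on glucose 48 h, a count ratio of 60.1 with a 95% exact counting interval of 10.3 to 2424 (adjusted p = 0.000231, edgeR). Its fitted log2 fold change of 5.47 was 7.40 without glucose 48 h library B and 4.72 without library A. The other, An01g10930, had 1552 and 1041 CPM with glucose added and 594 and 544 CPM on glucose 48 h and rose by 1.19 ± 0.35 log2 units (adjusted p = 0.0184, edgeR). That call was lost without glucose-added library A (0.248), without glucose 48 h library B (0.0786) and with RPKM values (0.563).

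In nitrogen use and amino acid synthesis, 2 of 7 tested genes fell and none rose, against 8.87% of all tested genes called lower and 10.0% higher. The gene gdhA, for the glutamate dehydrogenase that takes up ammonium, had 727 and 516 CPM with glucose added, against 1263 and 1709 CPM on glucose 48 h, and fell by 1.25 ± 0.40 on the log2 scale (adjusted p = 0.0303, edgeR). The leucine synthesis gene leu2A had 116 and 71.7 CPM with glucose added, against 258 and 172 CPM on glucose 48 h, and fell by 1.16 ± 0.36 on the log2 scale (adjusted p = 0.0256, edgeR). Both groups were separate at both genes, but the calls were not stable. For gdhA the call was lost without glucose-added library A (0.0675) or B (0.229) and without glucose 48 h library B (0.0877). For leu2A it was lost without glucose-added library B (0.236), without glucose 48 h library A (0.226) and by DESeq2 (0.0858). The nitrate reductase gene niaD had 3249 and 2439 CPM with glucose added, against 1707 and 1088 CPM on glucose 48 h, and missed the threshold (adjusted p = 0.0744, edgeR). It was called higher without glucose 48 h library A (0.0223), without willow library A (0.0424) or B (0.0424) and under the replicate block (0.0209). The amine oxidase gene AO-I, on no list, had 17.3 and 18.5 CPM with glucose added and 82.3 and 42.3 CPM on glucose 48 h and fell by 1.79 ± 0.47 on the log2 scale (adjusted p = 0.00887, edgeR). Its call was lost without glucose-added library A (0.0928), without glucose 48 h library A (0.146) and with RPKM values (0.126).

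Protease genes moved in both directions. Of 9 tested protease genes, 3 rose and 1 fell, against 10.0% of all tested genes called higher and 8.87% lower. One of the 3, pepD, passed the count filter only when the willow libraries entered it. With the 4 libraries alone, 2 of 8 tested protease genes rose and 1 fell. The gene pepA, for a secreted acid protease (aspergillopepsin), had 142 and 169 CPM with glucose added, against 9.60 and 16.9 CPM on glucose 48 h and 1807 and 792 CPM on willow. It rose by 3.51 ± 0.48 log2 units (adjusted p = 1.04e-05, edgeR). The gene proctase-A, for a second secreted acid protease, had 1749.9 and 1947 CPM with glucose added and 583 and 742 CPM on glucose 48 h and rose by 1.48 ± 0.39 log2 units (adjusted p = 0.00839, edgeR). The vacuolar aspartic protease gene pepE had 763 and 428 CPM with glucose added, against 1784 and 1557 CPM on glucose 48 h, and fell by 1.48 ± 0.36 on the log2 scale (adjusted p = 0.00488, edgeR). Without glucose-added library B the adjusted p was 0.0505 for proctase-A and 0.123 for pepE, and limma on RPKM gave 0.359 for proctase-A. The subtilisin-like protease gene pepD had 18 counts with glucose added and none on glucose 48 h, at least 9.12-fold higher (adjusted p = 0.015, edgeR), and its call was lost by DESeq2 (0.28), by limma on RPKM (0.126), without glucose-added library B (0.182) and without glucose 48 h library A (0.0521) or B (0.0764).

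The acid phosphatase gene aphA, whose product frees phosphate outside the cell, had 183 and 148 CPM with glucose added, against 21.9 and 9.67 CPM on glucose 48 h, and rose by 3.40 ± 0.46 log2 units (adjusted p = 7.48e-06, edgeR). Without glucose 48 h library A its log2 fold change was 4.08. The phytase gene phyB did not pass, at 7.41 and 18.5 CPM with glucose added and 23.3 and 38.7 CPM on glucose 48 h (adjusted p = 0.151, edgeR; called lower at 0.0488 by limma on RPKM). Of the remaining genes with a RefSeq symbol, hyl1 fell by 1.86 ± 0.40 on the log2 scale, to 32.1 and 41.6 CPM with glucose added, against 158 and 106 CPM on glucose 48 h (adjusted p = 0.00174, edgeR; 0.0599 without glucose-added library A). The gene Sox had 24.7 and 32.4 CPM with glucose added and 2.74 and 3.63 CPM on glucose 48 h (adjusted p = 0.00601, edgeR), and leaving out any single one of the 4 libraries gave adjusted p-values between 0.051 and 0.0673, above the threshold (0.0535 without glucose-added library A and 0.0511 without glucose 48 h library B).

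Genes of secretion and protein folding gave no call. None of 9 tested members passed edgeR's test, 1 had an unadjusted p under 0.05, against 18.9% and 30.4% of all tested genes, and DESeq2 and limma called none. The chaperone gene bipA had 185 and 201 CPM with glucose added and 125 and 156 CPM on glucose 48 h, and tigA, for a disulfide isomerase of the secretory pathway, had 436 and 645 CPM with glucose added, against 302 and 320.4 CPM on glucose 48 h. Of the trehalose synthesis genes tpsA and tpsB, neither passed edgeR's test or had an unadjusted p under 0.05, and DESeq2 and limma called neither. Listed markers of starving hyphae summed to 361 and 555 CPM with glucose added, against 413 and 481 CPM on glucose 48 h and 3620 and 4041 CPM on willow. All 4 markers passed the count filter when the willow libraries entered it, and 3 did with the 4 libraries alone. Of the 4 markers, An02g07020 was called, against 18.9% of all tested genes. It had 66.7 and 150.3 CPM with glucose added and 37.0 and 43.5 CPM on glucose 48 h (log2 fold change 1.38 ± 0.43, adjusted p = 0.0239, edgeR). That call was lost without glucose-added library B (0.418, at a log2 fold change of 0.72), without glucose 48 h library A (0.0725) and with RPKM values (0.633). Markers of conidiophores, the spore-bearing hyphae, summed over 6 genes to 248 and 153 CPM with glucose added, against 118 and 105 CPM on glucose 48 h. Only 2 of them had enough counts to be tested and neither passed edgeR's test, with 1 at an unadjusted p under 0.05 (30.4% of all tested genes) and none called by DESeq2 or limma. Without glucose 48 h library A, An14g05350 was called higher (adjusted p = 0.00585, edgeR; 0.279 with all libraries). The part of sporulating or starving hyphae in the differences above was not tested.

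**Figure D4:**
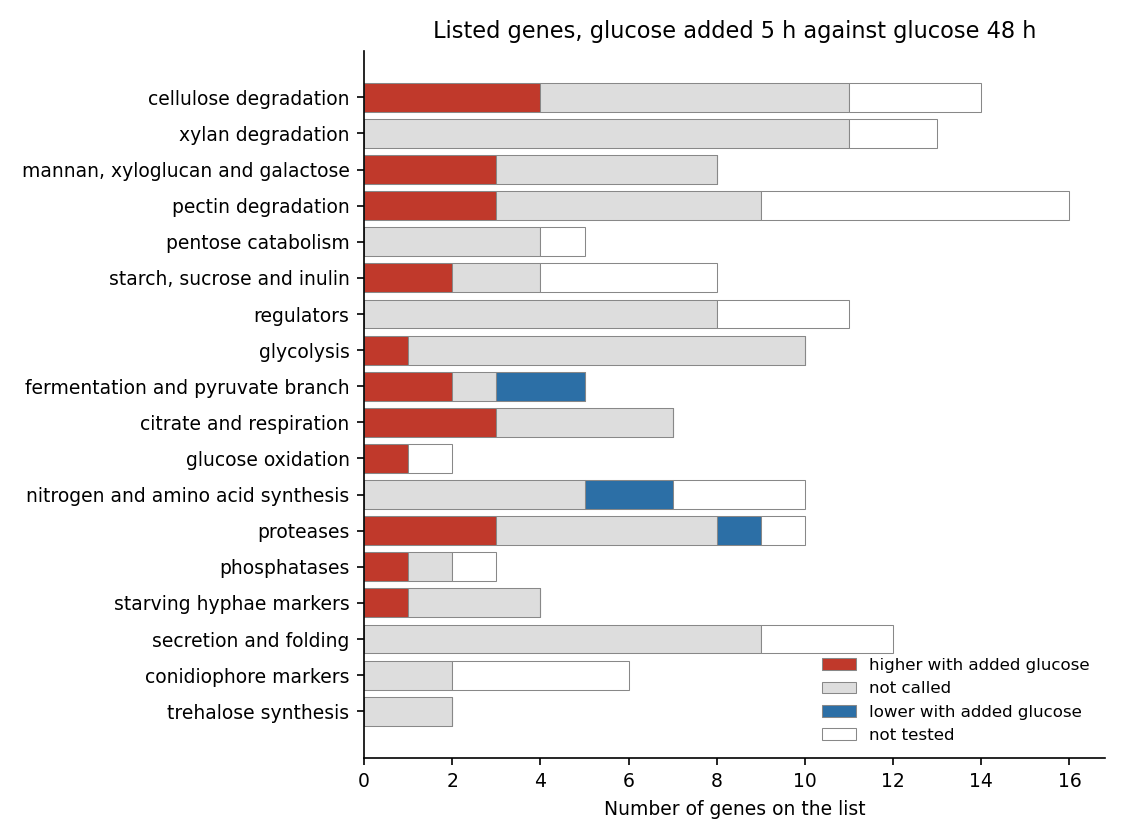
For each list of genes, the bar length is the number of genes listed, split into those called higher with added glucose (red), not called (grey), called lower (blue) and not tested for want of reads (white). The cellulose list has 4 higher of 11 tested genes, the xylan list none of 11, and the nitrogen and amino acid list 2 lower of 7.

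The largest decreases among abundant genes left transcripts with few or no reads with glucose added that were abundant on glucose 48 h, and none of these genes has a RefSeq symbol. TID_124807 had no count in either glucose-added library, against 2469 and 1013 CPM on glucose 48 h, at least 721-fold lower against 3 counts over the group. An01g14820 had 2.47 and 2.31 CPM with glucose added, against 5521 and 5683 CPM on glucose 48 h. This is a glucose 48 h over glucose-added ratio of 2322 with a 95% exact counting interval of 794 to 11261. The gene with the preceding identifier, An01g14810, had 3.70 and 23.1 CPM with glucose added, against 5780.4 and 7431 CPM on glucose 48 h, and fell by 9.16 ± 0.67 on the log2 scale (adjusted p = 5.14e-10, edgeR), with a log2 fold change of -8.14 without glucose-added library A and -10.73 without library B. An13g01760 had 38.3 and 53.2 CPM with glucose added, against 6008 and 9803 CPM on glucose 48 h, and fell by 7.45 ± 0.52 on the log2 scale (adjusted p = 3.23e-10, edgeR). Its identifier directly follows that of aphA, which was higher with added glucose. The willow levels of An01g14820, An01g14810 and An13g01760 were at most 19.6 CPM, so these transcripts were abundant in the glucose 48 h group and low in both others.

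Gene models without an identifier of the second strain were part of this group. TID_42743 had 8.64 and 23.1 CPM with glucose added, against 6577 and 4816 CPM on glucose 48 h, with a log2 fold change of -8.60 ± 0.58, which was -7.93 without glucose-added library A and -9.34 without library B. TID_211877 had 3.70 and 0 CPM with glucose added, against 5063 and 1804 CPM on glucose 48 h, a glucose 48 h over glucose-added count ratio of 1379 with a 95% exact counting interval of 472 to 6690.1. TID_211885, chosen after its values were seen, had 9.88 and 27.7 CPM with glucose added and 13231 and 7424 CPM on glucose 48 h. Of 271 such gene models tested, 26 were higher and 44 lower with added glucose, so 25.8% were called, against 18.9% of all tested genes. More moderate decreases at high levels were those of An02g10320, with 939 and 876 CPM with glucose added and 6606 and 6035 CPM on glucose 48 h (-2.80 ± 0.39 log2 units), and An01g03480, with 972 and 1399 CPM with glucose added and 7271 and 9133 CPM on glucose 48 h (-2.79 ± 0.43 log2 units).

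The largest increases among abundant genes were smaller in fold. TID_37149 had 803 and 1269 CPM with glucose added, against 132 and 97.9 CPM on glucose 48 h, and rose by 3.17 ± 0.37 log2 units (adjusted p = 8.63e-07, edgeR). An14g02460 had 3988 and 4856 CPM with glucose added, against 602 and 589.9 CPM on glucose 48 h, and rose by 2.89 ± 0.41 log2 units (adjusted p = 1.5e-05, edgeR). An01g00370 had 3097 and 3110.1 CPM with glucose added, against 638 and 453 CPM on glucose 48 h, and rose by 2.51 ± 0.37 log2 units (adjusted p = 2.96e-05, edgeR). In these 3 genes the glucose-added libraries were several-fold above both glucose 48 h libraries. The others chosen by the same rule, beside adhA and rpl15, were An15g02040, An16g07080, An06g01870, An05g00540 and An13g02730, with log2 fold changes between 1.52 (An13g02730) and 1.88 (An15g02040). Their calls were not made by limma on RPKM, where adjusted p-values ran from 0.223 (An15g02040) to 0.424 (An13g02730), with 0.306 for An16g07080, 0.314 for An06g01870 and 0.336 for An05g00540 between them. An16g07080 also lost its call without glucose-added library B (0.12, at a log2 fold change of 1.03).

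In all, 24 genes called higher had no count in either glucose 48 h library, and 17 genes called lower had none in either glucose-added library. How many of all tested genes had none in the same libraries was not counted, so these numbers alone say nothing about the groups. Among genes chosen after their values were seen, An06g02400 had 79.0 and 87.9 CPM with glucose added. This was at least 43.3-fold higher than on glucose 48 h against 3 counts over the group. An12g01310 had 61.7 and 85.6 CPM with glucose added and had 159 and 235 CPM on willow, and exceeded glucose 48 h at least 38.2-fold. An16g03700 had 839.8 and 853 CPM with glucose added and 991 and 1065 CPM on willow, against 1.37 and 2.42 CPM on glucose 48 h, a glucose-added over glucose 48 h ratio of 438 with a 95% exact counting interval of 149 to 2128. Levels of An16g03700 with glucose added were thus close to those on willow, and An12g01310 was likewise present in both willow libraries, while An11g00820, at 45.7 and 62.4 CPM with glucose added, had no count in the other 4 libraries (at least 28.0-fold above glucose 48 h). On the opposite side, An03g03620 had no count with glucose added and 357 and 256 CPM on glucose 48 h, at least 127-fold lower.

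Some genes called in the same direction lay side by side. In RefSeq's gene order, 13 runs of 3 or more neighbouring genes were called in 1 direction, 5 higher and 8 lower, with 50 genes in all. The runs were chosen after the values were seen. Over all tested genes, 10.0% were called higher and 8.87% lower. How many runs such shares would give in a random gene order was not tested, so the number alone says nothing about grouping. Runs were not counted under the alternatives, where some members lost their calls by DESeq2 or with RPKM values. One lower run, An03g03520 to An03g03560, had 5 genes. Within it, An03g03530 had 1.23 and 2.31 CPM with glucose added, against 673 and 698 CPM on glucose 48 h, a glucose 48 h over glucose-added ratio of 426 with a 95% exact counting interval of 118 to 3524. An03g03540 had no count with glucose added and 111 and 100.3 CPM on glucose 48 h, at least 43.8-fold lower, and An03g03550 had none with glucose added and 139.9 and 115 CPM on glucose 48 h, at least 52.7-fold lower. An03g03520 had 2.47 and 2.31 CPM with glucose added and 208 and 284 CPM on glucose 48 h, and An03g03560 had 0 and 6.94 CPM with glucose added and 306 and 262 CPM on glucose 48 h (fitted log2 fold change -6.72, -5.31 without glucose-added library A and -10.51 without library B). On willow all 5 had at most 4.35 CPM, so the whole run had reads almost only in the glucose 48 h libraries.

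Another run, An12g03750 to An12g03780, held the abundant An12g03760, with 56.8 and 99.4 CPM with glucose added, against 5277 and 9618 CPM on glucose 48 h, a log2 fold change of -6.60 ± 0.53 (adjusted p = 3.5e-09, edgeR). Its neighbours An12g03770 and An12g03780 had log2 fold changes of -5.72 ± 0.52 and -6.26 ± 0.54, and An12g03750 had no count with glucose added, at least 17.7-fold lower. For An12g03780 the change was -5.44 without glucose-added library A, -7.32 without library B and -5.60 without glucose 48 h library B, and for An12g03770 it was -5.09 without glucose-added library A. The other lower run of 5 genes, An03g00650 to An03g00690, had log2 fold changes between -1.55 (An03g00680) and -3.45 (An03g00670). There glucose 48 h library B was well above library A at each gene, as at An03g00660 with 1090.5 and 1491 CPM with glucose added and 2322 and 6336 CPM on glucose 48 h. Without that library the calls at An03g00660 (0.203) and An03g00680 (0.064) were lost, as they were without glucose-added library A (0.118 for An03g00660 and 0.192 for An03g00680). Also without glucose 48 h library B, the changes at An03g00650, An03g00670 and An03g00690 were -1.69, -2.23 and -2.30, against -2.52, -3.45 and -3.0 with all libraries, while without glucose-added library B or glucose 48 h library A that at An03g00670 was -4.04 and -4.10, and that at An03g00690 without glucose-added library B was -3.80. DESeq2 did not call An03g00650 (0.13), An03g00660 (0.218) or An03g00680 (0.408).

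The longest run higher with added glucose had 6 genes, An18g02680 to An18g02730. The largest change among them with ample reads was at An18g02700, with 435 and 312 CPM with glucose added, against 48.0 and 18.1 CPM on glucose 48 h and 651 and 706 CPM on willow. It rose by 3.51 ± 0.42 log2 units (adjusted p = 1.39e-06, edgeR), and by 4.36 without glucose 48 h library A. An18g02690 and An18g02730 rose by 3.94 ± 0.65 and 3.10 ± 0.61 log2 units, and without glucose 48 h library A by 5.47 and 3.73, while An18g02690 rose by 3.15 without library B. The end gene An18g02680 was the weakest, with 117 and 116 CPM with glucose added and 46.6 and 59.2 CPM on glucose 48 h, and leaving out any single one of the 4 libraries gave an adjusted p between 0.0754 (without glucose 48 h library B) and 0.167 (without glucose 48 h library A), and DESeq2 gave 0.0731. Without glucose-added library A, calls were also lost at An18g02710 (0.0663) (at a log2 fold change of 1.84) and An18g02720 (0.599, and 0.161 without glucose 48 h library B). By limma on RPKM, An18g02680 (0.609), An18g02710 (0.166), An18g02720 (0.572) and An18g02730 (0.28) were not called. Reads of neighbouring genes can overlap where transcripts do, and whether that happened here was not tested.

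**Figure D5:**
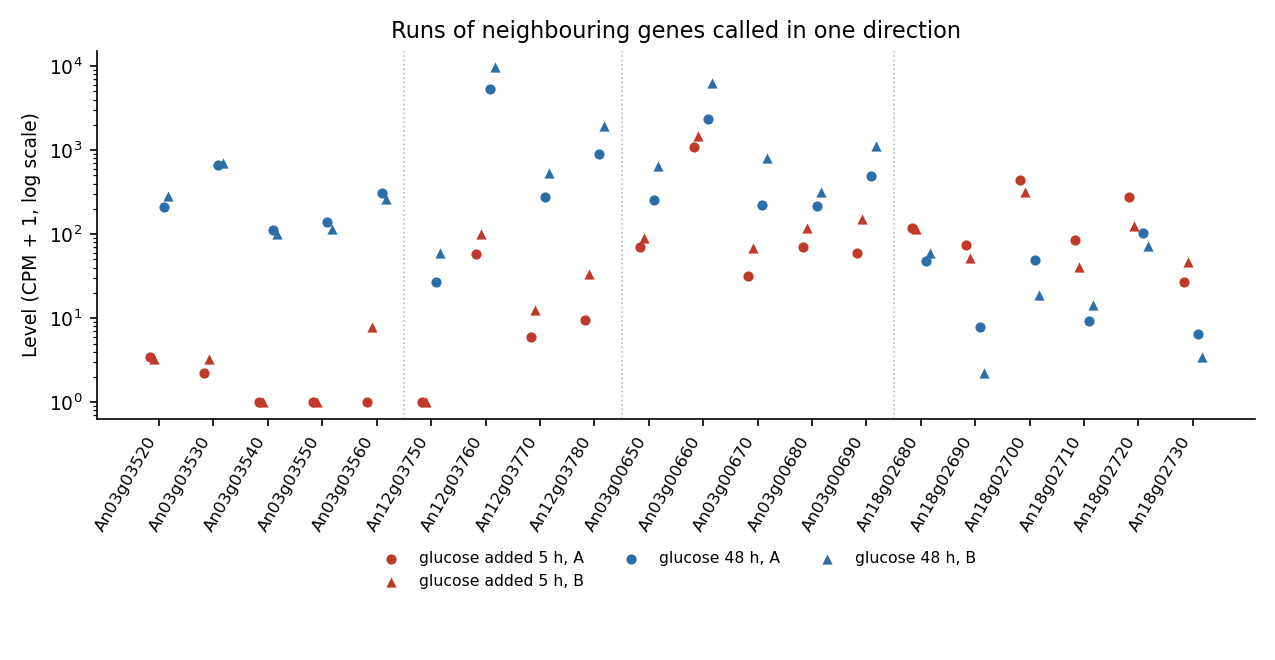
Levels (CPM + 1, log scale) of the genes in 4 of the 13 runs of neighbouring genes called in 1 direction, in RefSeq order, in each glucose-added library (red) and glucose 48 h library (blue), with circles for library A and triangles for library B. Dotted lines part the runs. The first 3 runs lie lower with added glucose in every gene, and the fourth, from An18g02680 to An18g02730, lies higher.

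A few abundant rows differed more between the libraries of a group than between groups. An16g04600 had 3222 and 46866 CPM with glucose added and 4435 and 13731 CPM on glucose 48 h, so that library B was far above library A in both groups. TID_37299 had 2130.3 and 22934 CPM with glucose added and 2623 and 6805 CPM on glucose 48 h, with the same order. Neither passed edgeR's test (adjusted p = 0.193 for An16g04600 and 0.161 for TID_37299). These rows were high in the libraries with the larger shares of multiply aligned reads, 74.8% against 58.8% with glucose added and 68.3% against 58.4% on glucose 48 h, and the part of that share in their levels was not tested. Per length, the most abundant gene model with glucose added was TID_138531, with deposited RPKM values of 6916 and 2416 with glucose added and 5902 and 6224 on glucose 48 h, and its log2 fold change was 0.00 ± 0.49.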

How the data were processed

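RNA of mycelium of Aspergillus niger N402 was depleted of ribosomal RNA with a Ribominus kit and sequenced, per the labels' protocols, as paired colour-space reads on a SOLiD 5500xl. The deposited counts are whole reads per gene, per the file headers; HTSeq is named, without a version, in the submitters' processing notes, and the sources used here do not give an aligner or genome build. The deposited RPKM values divide by all reads of a library, including 5 entries that name no gene and held 96.9% to 98.5% of reads; that divisor gives whole gene lengths (within 0.01 bp) for 100% of genes with over 20 counts. These entries entered neither library sizes nor tests. The headers pair gene models (Aspni5, TID_) with identifiers of a second strain (An) for 14114 of 15431 genes. Of these, 14055 were found in the RefSeq table (assembly ASM285v2) used for 129 symbols and for gene order. That order sorts genes by RefSeq start position within the contig number of the identifier, so it is the order in the second strain. Coordinates were used for nothing else. A list member without a symbol stands there by identifier alone.

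Differences were tested on counts by glmQLFit and glmQLFTest of edgeR 4.0.16 (R 4.3.3), two-sided, with Benjamini-Hochberg adjustment over all tested genes and a threshold of 0.05, TMM factors and filterByExpr (minimum count 10, minimum total 15), which left out 9250 genes. All 6 libraries entered 1 fit of group means with 3 residual degrees of freedom, and the contrast was glucose added minus glucose 48 h. The standard error is the log2 fold change over the square root of F. P-values rest on the spread between duplicate flasks in all 3 groups, the willow flasks included, with each gene's estimate drawn toward that of other genes. Between replicates the median gene differed 1.33-fold with glucose added and 1.31-fold on glucose 48 h, and chi-square values of 14.0 and 9.47 per degree of freedom exceeded sampling noise in both pairs. Genes with no count in a group are set against 3 counts over that group, and genes with 1 to 3 counts get a ratio with an exact 95% interval; both cover counting error only. Alternatives were other scalings and count filters, DESeq2 1.42.0, limma 3.58.1 on log2(deposited RPKM + 1), the 4 libraries alone, a replicate block and leaving out each library.

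Genes named are the 10 that rose most and the 10 that fell most among calls without overlap whose mean RPKM reached 50 in either group, called genes with a symbol, a fixed set (xlnR, creA, amyR, glaA, aglU, adhA, gpdA, pkiA, pfkA, cbhA, cbhB, eglB, xynB, xlnD, xyrA) and the gene lists. Members, lists and the rule were chosen with earlier results of these data known. HTSeq does not count multiply aligned reads to a gene, so near-identical genes are uncertain, and 3720 genes had no count in any library, which is not taken as absence.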

Additional observations from a re-analysis of the deposited data

How the results depend on the processing

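Of 1167 calls, 1054 were shared under scaling by total gene counts, 821 under DESeq2 and 653 under limma on RPKM values. With at least 50 counts in 2 libraries, 769 of 2743 genes were called (372 higher), and RPKM values gave 758 calls, 183 of them higher. The other settings with all 6 libraries gave between 830 (DESeq2) and 1292 calls (replicate block), and the 4 libraries alone gave 1296. Leaving out each library in turn gave between 631 (without glucose-added library A) and 1439 calls (without willow library A), with 361 to 752 higher and 270 to 687 lower; the low counts were those without glucose-added library A (631) or B (776) or glucose 48 h library B (722). Under the replicate block, with the letters as a term, 695 calls were higher and 597 lower. The letters were not taken as pairs, since deviations of same-lettered libraries correlated at 0.12 and the labels pair nothing.

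Among 195 tested genes named or listed, 106 were called, 46 of them under every one of the 15 alternatives that tested them. Of 2867 values for single genes under alternatives, 2617 stayed on their side of the threshold, 193 became weaker, 56 stronger and 1 reversed. The reversed one was the tRNA row An18e00610, with 55.6 and 1320.3 CPM with glucose added and 98.7 and 268 CPM on glucose 48 h. Its log2 fold change was 1.88 with all libraries (adjusted p = 0.0655, edgeR), -1.72 without glucose-added library B and 2.84 without library A. Without a library, its group rests on 1 sample whose spread is assumed to be that of the others.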
